A study of Mus musculus with 3 samples.

Results

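The cytosolic ribosomal proteins are the protein components of the ribosome that translates nuclear-encoded mRNA. Their genes were taken from the deposited table by symbol: protein-coding rows whose symbol is Rpl or Rps with a number and an optional ending, the stalk genes Rplp0 to Rplp2, and Rpsa. The rule found 85 of the 35275 genes listed, and no expression value entered it. Of these, 81 reached 1 FPKM (fragments divided by gene length and by the total of the library) in at least 1 library: 33 small-subunit, 45 large-subunit and 3 stalk genes. They lie on 19 chromosomes, 4 of them on X.

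Liver polyA RNA of male C57BL/6J mice was sequenced as 3 libraries, 1 per group, and the series set NASH (nonalcoholic steatohepatitis) against control and TH-treated NASH against NASH. Mice were 10 weeks old at the start. The control group ate normal chow without treatment, and the labels do not give its total weeks. The NASH group ate a western diet with liquid fructose, untreated, and its label names 24 weeks. The TH-treated NASH group ate that diet for 16 weeks and then received the thyroid hormones T3 (35 ng/g) and T4 (7 ng/g) in drinking water with 15% fructose for 8 weeks. These doses are as the labels print them, with T3 the larger, and are uncertain because no other source was used to check them. The labels do not say how many mice went into a library. The diet is the model of NASH, and no engineered allele is named. With 1 library per group there was no estimate of spread between animals and no test between groups, so every interval given covers counting error only, and PCR copies make even that too narrow.

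Ribosomal proteins are made in matched amounts, assembled onto ribosomal RNA in the nucleolus and exported as small and large subunits. In vertebrates their mRNAs typically start with a C followed by a run of C and T, the 5′ terminal oligopyrimidine (TOP) element. Through it, the kinase mTORC1 and the RNA-binding protein Larp1 control how well these mRNAs are translated and how stable they are. In liver, thyroid hormone acts on nuclear receptors and is long known to raise protein synthesis. RNA levels, measured here, do not give translation rates.

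The control library held 54576236 fragments, NASH 47009255 and TH-treated NASH 38303410, and all triplets of values that follow keep this order. The labelled tissue was checked with 7 hepatocyte markers, which summed to 57322, 39558 and 42208 FPKM. Alb was the largest part of each sum, at 32685, 20265 and 14907 FPKM. At 1.2-fold after centring, 5 of the 7 were higher in TH-treated NASH than in NASH, against 25% of all genes. The 2 others, Alb and Ttr, were lower, against 23.7%, and the list's centred median was 0.52. A bulk level cannot tell fewer cells of a type from less RNA per cell. Other markers also moved. The 5 neutrophil markers summed to 4.66, 8.69 and 88.4 FPKM, and the 6 erythroid markers to 316, 391 and 1758 FPKM, with 4 globin genes higher in TH-treated NASH and Alas2 lower (60.5, 44.3 and 22.8 FPKM). The 9 macrophage markers summed to 171, 566 and 602 FPKM. Among them Cd5l (33.7, 115 and 200 FPKM) was higher in TH-treated NASH than in NASH and Cd74 (47.1, 177 and 83.3 FPKM) lower, and the list's centred median for that pair was -0.20. The 7 stellate cell markers summed to 16.9, 47.6 and 21.7 FPKM. Among them Col3a1 stood at 4.51, 16.7 and 4.43 FPKM, while Lrat stood at 2.90, 5.43 and 5.11 FPKM. At 1.2-fold after centring, 5 of the 7 were lower in TH-treated NASH than in NASH and 1 higher, against 23.7% and 25% of all genes. The neutrophil gene Ly6g rested on 0, 1 and 7 fragments, too few to compare the libraries. The part of these cells in the ribosomal protein levels was not tested.

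The sequence around the transcription start bears on the TOP element, and members from both ends of the range of response are given so that they can be compared. RefSeq windows (GRCm38.p6) matched 64 members. Each line runs 5′ to 3′ on the strand of the gene, from 20 bases before the first listed start to 25 bases from it on, with the longest C and T run that begins with C in capitals where it holds 6 bases or more. The first 5 genes had high ratios of TH-treated NASH to NASH, the next 5 low ones, and Rps27 is the partner of Rps27l.
Rpl22l1, chr3:28805488-28805532, plus strand: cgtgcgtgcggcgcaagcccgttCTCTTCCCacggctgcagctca
Rpl41, chr10:128549144-128549188, minus strand: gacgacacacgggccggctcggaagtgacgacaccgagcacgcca
Rpsa, chr9:120127746-120127790, plus strand: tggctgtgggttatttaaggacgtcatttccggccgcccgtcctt
Rpl13a, chr7:45128721-45128765, minus strand: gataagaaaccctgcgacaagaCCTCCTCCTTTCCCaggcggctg
Rpl38, chr11:114668560-114668604, plus strand: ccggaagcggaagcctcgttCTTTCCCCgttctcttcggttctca
Rps27l, chr9:66946066-66946110, plus strand: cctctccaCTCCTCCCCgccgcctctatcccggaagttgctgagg
Rpl7l1, chr17:46782632-46782676, minus strand: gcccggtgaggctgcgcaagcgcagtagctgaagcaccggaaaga
Rpl15, chr14:18270962-18271006, minus strand: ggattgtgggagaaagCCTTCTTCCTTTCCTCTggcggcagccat
Rpl10, chrX:74270796-74270840, plus strand: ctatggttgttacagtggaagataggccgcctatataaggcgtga
Rpl22, chr4:152325706-152325750, plus strand: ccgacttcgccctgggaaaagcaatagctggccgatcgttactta
Rps27, chr3:90213624-90213668, minus strand: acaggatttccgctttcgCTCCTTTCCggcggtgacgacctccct

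A run of at least 8 bases that begins with C stood in 33 of the 76 windows of members (43.4%), against 13.9% of all 32851 windows. On the opposite strand it stood in 6.58% of the members' windows and 15.6% of all. In the members' windows the run was thus more frequent on the strand of the gene than on the other strand. The base at the annotated start was C in 22 of the members' windows (28.9%), against 16.3% of all. Over the whole 300-base windows, both strands searched, the letters CCGGAAG occurred in 35.5% of members' windows and 8.86% of all, and TATAAA in 9.21% and 13.6%. These are matches of letters, not sites, and several windows of 1 gene overlap.

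The ribosomal protein genes were, almost without exception, highest in the TH-treated NASH library and, for most, lowest in the NASH library. Together they took 1.92% of all fragments in control (95% exact interval 1.917 to 1.924), 1.76% in NASH (1.759 to 1.766) and 3.08% in TH-treated NASH (3.079 to 3.090). The median member stood at 246, 223 and 394 FPKM. TH-treated NASH was the highest of the 3 libraries for 80 of 81 members, against 41.2% of all genes, and NASH the lowest for 68, against 17.7%. The order NASH, control, TH-treated NASH from low to high held for 68 members, against 12.6% of all genes. Both steps of that order use the same NASH library.

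**Figure D1:**
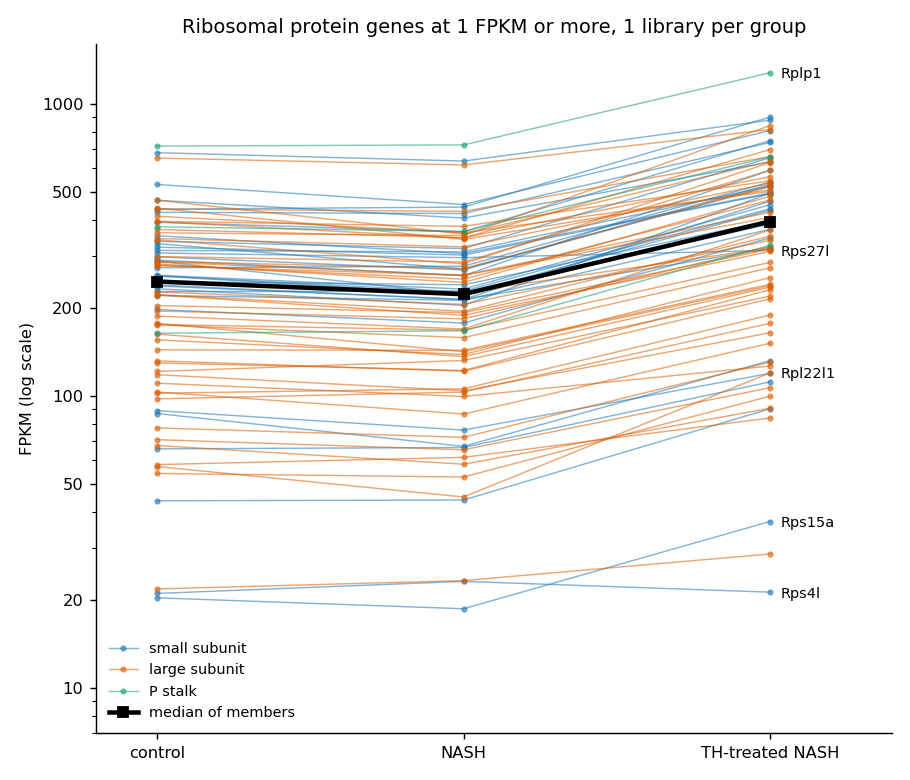
FPKM (log scale) of the 81 ribosomal protein genes at 1 FPKM or more, 1 line per gene coloured by subunit, in the 3 libraries; the black line joins the medians of 246, 223 and 394 FPKM. Nearly all lines are highest in TH-treated NASH, and Rps4l is the line that is not.

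By mean FPKM the highest member was Rplp1, which encodes an acidic P protein of the stalk that helps recruit translation factors to the large subunit. It stood at 716, 722 and 1275 FPKM, so control and NASH were close (fold 1.01, interval 0.988 to 1.03) and TH-treated NASH was 1.77-fold above NASH. Its stalk partners were Rplp2 at 164, 167 and 327 FPKM and Rplp0, the anchor that ties the P proteins to the ribosome, at 379, 365 and 657 FPKM. All 3 stalk genes were highest in TH-treated NASH, with 1.77-fold to 1.96-fold higher FPKM than in NASH. In NASH they were close to control, with folds from 0.964 for Rplp0 to 1.02 for Rplp2.

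Rps2, which lies near the mRNA entrance of the small subunit, followed at 679, 636 and 878 FPKM, and in control it held more fragments than Rplp1, 40546 against 19335. Rpl10, which is added late and is needed for the subunits to join, stood at 651, 617 and 815 FPKM. These abundant genes had small differences: TH-treated NASH over NASH was 1.38 for Rps2 and 1.32 for Rpl10. The other genes among the 10 highest by mean FPKM were Rps27, Rps12, Rps15, Rpl41, Rpl19, Rps14 and Rps26. Of these, Rps12 was at 435, 442 and 898 FPKM and Rps15 at 424, 420 and 736 FPKM. Rps12 and Rps15 thus hardly differed between control and NASH and stood well above both in TH-treated NASH.

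The level of a member depends on the deposited gene length, which is no measure of its mRNA for many of them. For 28 members it was over 2 times the shortest coding transcript in GENCODE M21. Rps15a, listed with 5130 bases, had the lowest level in control of the 81 expressed members, 20.3 FPKM, from 5685 fragments. Its ratios between libraries do not depend on that length, since the same length divides each value. Across the 81 members the centred log2 ratio (defined in the next paragraph) of TH-treated NASH to NASH had a Spearman rho of -0.15 with the deposited length and 0.02 with FPKM in control, given as a description of genes that share the same libraries.

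To set members against the rest of the transcriptome, log2(FPKM + 1) was subtracted between 2 libraries, a scale that understates folds of low genes. The median over all genes that reached 1 FPKM in at least 1 of both libraries was then removed, which gives the centred log2 ratio. That median was 0.12 for NASH against control, -0.03 for TH-treated NASH against NASH and 0.12 for TH-treated NASH against control. Median-of-ratios scaling turned the first and the last into -0.06 and -0.04. A median off 0 does not show that all genes shifted alike.

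In the comparison of NASH with control, the ribosomal protein genes were slightly and evenly lower. The centred median over members was -0.24, a 0.848-fold level, and the genes ran from -0.50 for Rpl36 to 0.01 for Rps4l. The spread was narrow: the interquartile range was 0.13 over members and 0.37 over all genes. Past 1.5-fold, 0 members were higher, against 7.43% of all genes, and 0 were lower, against 3.69%. At 1.2-fold, 36 of 81 were lower, against 16.1% of all genes, and 0 were higher, against 19.8%. At 2-fold, 0 members were higher or lower, against 2.54% and 1.08% of all genes. On the deposited FPKM scale without centring, 68 members were lower in NASH, 61 of them with a counting interval wholly below 1, and 6 had one wholly above 1. At this depth a small fold can clear 1, as for Rpl22 at 1.06 (1.02 to 1.10). The share of all genes was not counted on that scale, so these counts describe the members only.

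The lowest ratio was that of Rpl36, a large-subunit protein, at 467, 358 and 634 FPKM, a fold of 0.767 (0.743 to 0.791) in NASH. Rps18, of the head of the small subunit, stood at 289, 222 and 431 FPKM with a fold of 0.769. Rps28 stood at 86.8, 67.0 and 132 FPKM (0.772), and Rpl7a at 438, 343 and 508 FPKM (0.781). In each of these genes NASH was the lowest library and TH-treated NASH was above control. The highest ratios were close to 1 or just above it: 1.10 for Rps4l, 1.09 for Rpl21, 1.07 for Rpl7l1, and 1.06 for both Rpl22 and Rpl36al. Rpl21 stood at 121, 132 and 219 FPKM, with its lowest value in control. Centred medians were -0.26 for the small subunit, -0.24 for the large subunit and -0.11 for the 3 stalk genes, which ran from -0.17 to -0.09.

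In TH-treated NASH against NASH, the same genes were higher nearly throughout. The centred median over members was 0.84, a 1.79-fold level that lay at the 95.4th percentile of all 11734 genes compared, which is a description of where the median falls. Of 81 members, 71 were at least 1.5-fold higher, against 9.4% of all genes, and 0 were lower, against 8.29%. At 1.2-fold, 79 were higher, against 25% of all genes, and 0 lower, against 23.7%. At 2-fold, 16 members were higher, against 2.91% of all genes, and 0 lower, against 2.57%. Without centring, 80 of 81 had more FPKM in TH-treated NASH, all 80 with a counting interval wholly above 1. At this depth a small fold can clear 1, as for Rps27l at 1.06 (1.03 to 1.09). The share of all genes was not counted on that scale, so this count describes the members only. The interquartile range was 0.26 over members and 0.51 over all genes, so members differed less among themselves than genes at large. Centred medians were 0.88 for the small subunit, 0.80 for the large subunit and 0.88 for the stalk.

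**Figure D2:**
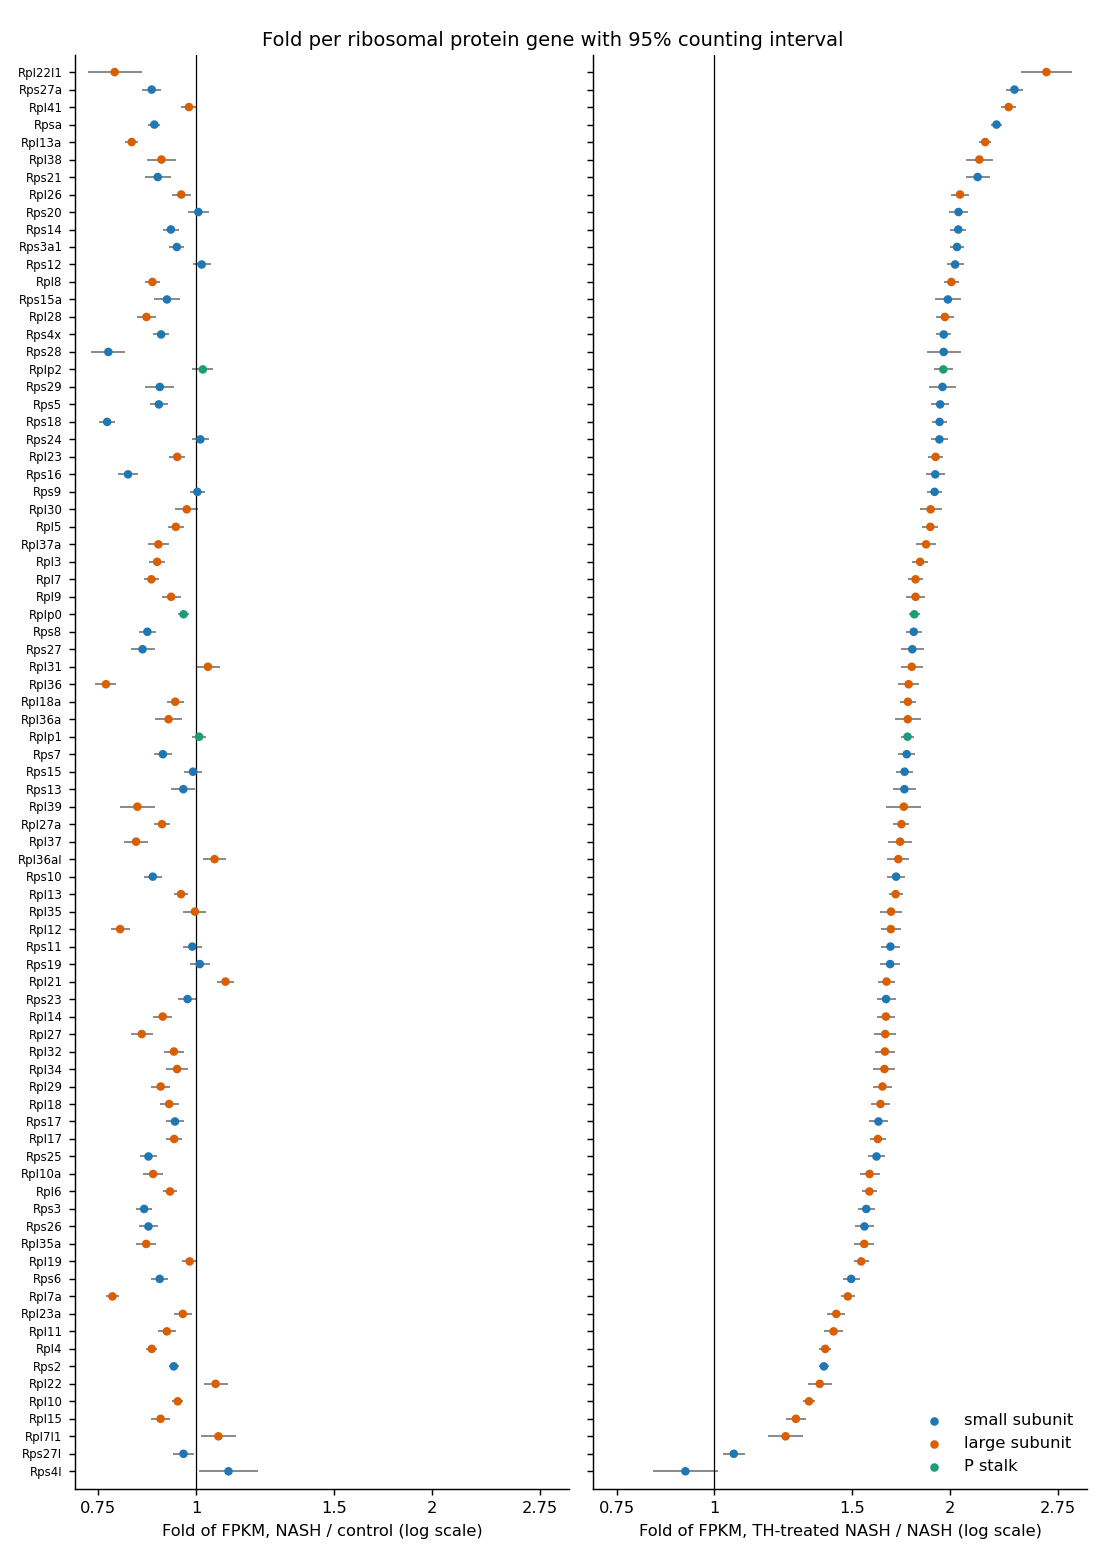
Ratio of FPKM for each of the 81 genes (log axes), NASH over control on the left and TH-treated NASH over NASH on the right, ordered by the right panel, with 95% counting intervals as bars. Most points lie somewhat below 1 on the left, and on the right all but Rps4l lie above 1, up to 2.66 for Rpl22l1; both panels use the same NASH library.

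The highest ratio was that of Rpl22l1, a paralog of the large-subunit protein Rpl22, at 57.2, 45.0 and 120 FPKM. Its fold of TH-treated NASH over NASH was 2.66 (2.47 to 2.87), and it rested on the fewest fragments of the genes at this end, 1526, 1034 and 2240. Rps27a, which is made as a fusion of ubiquitin with a small-subunit protein, stood at 232, 204 and 493 FPKM, a fold of 2.42 (2.36 to 2.48). Rpl41, the smallest ribosomal protein, stood at 361, 353 and 841 FPKM, a fold of 2.38. Rpsa, a small-subunit protein also known as the laminin receptor, stood at 291, 258 and 591 FPKM, a fold of 2.30. Rpl13a, which can leave the ribosome to act in the GAIT complex of macrophages, stood at 342, 283 and 628 FPKM, a fold of 2.22. In these 5 genes TH-treated NASH was far above both other libraries, and NASH was the lowest.

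At the other end, Rps4l was the single member with less FPKM in TH-treated NASH than in NASH, 21.02, 23.1 and 21.2 FPKM. Its fold of 0.918 had an interval of 0.835 to 1.009 that holds 1. The deposited table lists it as protein-coding, whereas GENCODE M21 calls it a transcribed processed pseudogene. Rps27l, a paralog of Rps27 that p53 induces, stood at 308, 297 and 314 FPKM, a fold of 1.06 (1.03 to 1.09). Its 3 values are nearly level although it is an abundant member. Rpl7l1, which serves in early large-subunit assembly, stood at 21.8, 23.3 and 28.7 FPKM (1.23), and Rpl15 at 110, 99.3 and 126 FPKM (1.27). Both were highest in TH-treated NASH by a small margin.

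The family holds 8 members named as -like copies, and 5 of these were expressed beside the member of the same number. Rpl22l1 had the highest fold of the family and Rpl22 a low one, 1.36 (1.32 to 1.41), from 58.1, 61.5 and 83.8 FPKM. In control the pair was at close levels by FPKM, in NASH Rpl22 was above Rpl22l1, and in TH-treated NASH Rpl22l1 was above Rpl22. This order of levels rests on the deposited lengths, 489 bases for Rpl22l1 and 2051 for Rpl22. By fragments Rpl22l1 stayed below Rpl22 in TH-treated NASH, 2240 against 6587. For Rps27, a zinc finger protein of the small subunit, the relation ran the other way: 529, 451 and 808 FPKM, a fold of 1.79 (1.73 to 1.85), beside the level values of Rps27l. Rps4x, encoded on X, stood at 299, 269 and 529 FPKM (1.96) beside the level Rps4l. Rpl7 stood at 222, 194 and 352 FPKM (1.81), above the 1.23 of Rpl7l1. Rpl36a and Rpl36al were close, with folds of 1.77 (1.70 to 1.84) and 1.72 (1.66 to 1.78) whose intervals overlap. For each pair other than Rpl36a and Rpl36al the counting intervals of this fold did not overlap. No 50-base stretch of Rps4l, or of the coding transcripts of the other -like members, occurs in a coding transcript of the partner in GENCODE M21. Noncoding transcripts of these genes were not compared.

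**Figure D3:**
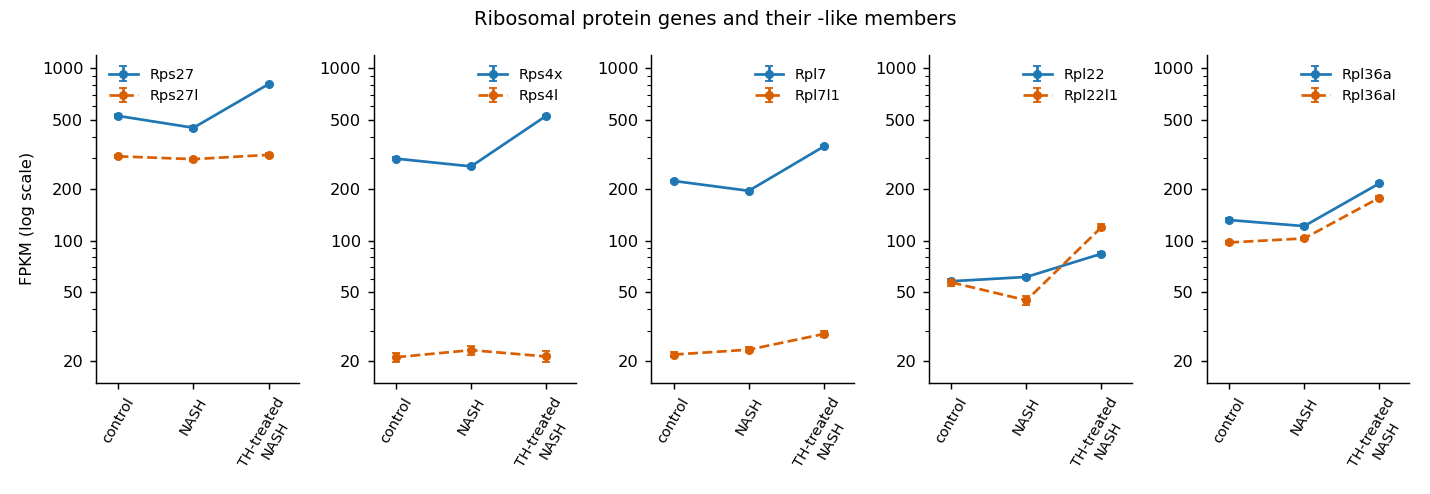
FPKM (log scale) of 5 ribosomal protein genes and their -like members in the 3 libraries, with exact 95% Poisson intervals as bars, most of them smaller than the points. Rps27 and Rps4x are highest in TH-treated NASH while Rps27l and Rps4l are level. By FPKM, which rests on the deposited lengths, Rpl22l1 passes Rpl22 in TH-treated NASH.

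The remaining 4 members were below 1 FPKM in every library. Rpl3l, the striated-muscle form of Rpl3, rested on 5, 8 and 0 fragments, and Rpl39l, known from testis, on 2, 0 and 7. Rpl10l, also a testis form, had 0 in all 3 libraries. Striated muscle and testis markers were likewise near or at 0: the 4 testis germ cell markers summed to 0 FPKM in each library. Rpl24, a core member of the large subunit, was listed at 0.244, 0.314 and 0.193 FPKM from 9, 10 and 5 fragments. Another listed gene, Gm28037, overlaps Rpl24 on the same strand and is itself at 0, and the sources used here do not give how fragments in overlapping genes were counted, so the Rpl24 value is uncertain. In all, 21 members are overlapped by another listed gene, 4 of them on the same strand.

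Compared with control, TH-treated NASH was higher for most members as well. This last comparison shares its libraries with the other 2. The centred median was 0.57, a 1.49-fold level. Of 81 members, 39 were at least 1.5-fold higher, against 11.6% of all genes, and 0 were lower, against 9.99%. At 1.2-fold 74 were higher, against 27.6%, and 0 lower, against 26.5%. At 2-fold after centring 1 member, Rpl41, was higher, against 4.24% of all genes, and 0 were lower, against 3.15%. Without centring, the folds of deposited FPKM were highest for Rpl41 (2.33), Rps27a (2.12), Rpl22l1 (2.09), Rps12 (2.07) and Rps20 (2.07). They were lowest for Rps4l (1.01, 0.920 to 1.11), Rps27l (1.02, 0.989 to 1.05), Rpl15 (1.15), Rpl7a (1.16) and Rpl4 (1.22). Rps20, of the small subunit, stood at 43.6, 43.9 and 90.1 FPKM, level between control and NASH. Rpl4 stood at 412, 361 and 501 FPKM.

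Members with and without a long C and T run in the window had close medians. The run was sought over the whole window shown above, not only at the annotated start. The split is therefore no comparison of members with and without a TOP start. In TH-treated NASH against NASH, the centred median was 0.83 for the 29 expressed members with a run of 8 or more. For the 31 with a shorter run it was 0.84, with the window of the first listed start used for each gene. Rpl41 and Rpsa, high in this comparison, had no capitalised run in the sequences above, while Rps27l and Rpl15, low in it, had runs of 9 and 17. The run of Rps27l begins 12 bases before the annotated start and ends before it, so it lies outside the annotated mRNA. In NASH against control the medians were -0.26 and -0.23. The annotated start may not be the start used in these livers.

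Gene length moved with the result in the TH-treated library. Among other genes of at least 20 FPKM, the centred median of TH-treated NASH against NASH was 0.46 for 88 genes up to 600 bases, 0.29 for those up to 1000, 0.18 up to 1500, 0.05 up to 3000 and -0.06 beyond. The members in the same length classes had medians of 0.86, 0.83, 0.85, 0.79 and 0.99, above the others in each class. In the shortest class the upper quartile of the other genes, 0.91, was above the members' median. With each gene centred on others of its deposited length, the members' median was 0.70. Then 57 members were at least 1.5-fold higher, against 7.93% of all genes. When members alone were given the median length of their coding transcripts, the members' median was 0.61. In that setting 51 members were higher, against 7.88% of all genes. The other genes kept their deposited length there, so the 2 shares rest on unlike lengths. Against control these medians were 0.38 and 0.36, with 22 and 14 members higher, against 10.5% and 10.4% of all genes. Centring on deposited length turned the sign for Rps27l against NASH, from 0.12 to -0.12, and for Rpl10 (0.21 to -0.02) and Rpl7a (0.09 to -0.09) against control. The part of length in the result beyond these values was not tested. In NASH against control the other genes showed no such slope, from -0.06 in the shortest class to -0.08 in the longest, and the members' medians ran from -0.27 to -0.23.

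**Figure D4:**
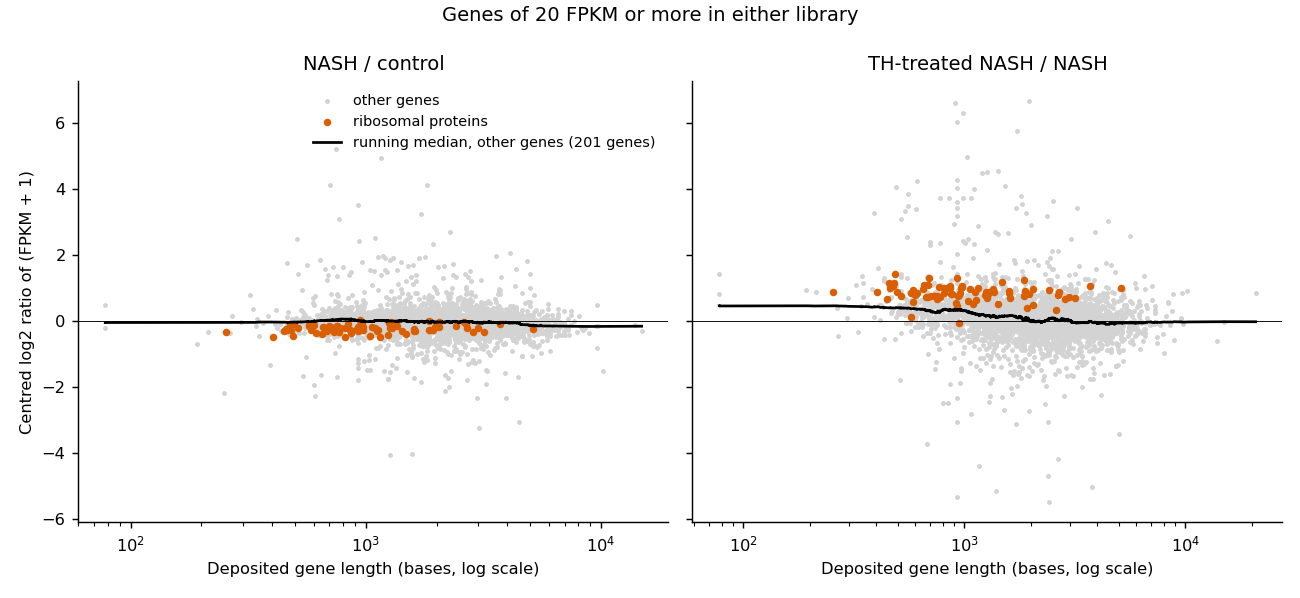
Centred log2 ratio against deposited gene length (log axis) for genes of 20 FPKM or more in either library (grey) and for the ribosomal protein genes (orange), with a running median of the other genes (black). Short genes lie higher in TH-treated NASH over NASH (right), where most members lie above the running median, and show no such slope in NASH over control (left).

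Reads of a ribosomal protein mRNA can also fit its many processed copies in the genome. In GENCODE M21 transcripts, a median of 64.1% of a member's 50-base stretches occurred in no other gene, from 4.91% to 100%. All coding transcripts of a gene were pooled, so 1 long transcript can raise its share. Rps15a reached 94.6% of 6023 stretches, with a median coding transcript of 638.5 bases. A high share therefore does not show that the main mRNA is free of copies. Of the 17 members with at least 80% of their stretches in no other gene, 12 were at least 1.5-fold higher in TH-treated NASH than in NASH. This stands against 9.4% of all genes, and the centred median of the 17 was 0.77. Rps27l (83.8%) and Rps4l (85.1%), the 2 level members, belong to this set, while Rplp1 (40.0%) and Rps27a (37.6%) do not.

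Partners of these genes at the ribosome, in translation and in ribosome assembly give the setting. The lists hold genes by their known role, some genes are in 2 lists, and a list's counts describe it without a test. The counts that follow, for TH-treated NASH against NASH at 1.5-fold, stand beside 9.4% of all genes higher and 8.29% lower. Fau, a ubiquitin-like fusion that yields the small-subunit protein eS30, stood at 275, 268 and 478 FPKM. Gnb2l1 (Rack1), a scaffold on the small subunit, stood at 73.3, 61.9 and 122 FPKM. Both were thus near the members in TH-treated NASH over NASH, at 1.78 and 1.97.

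Of 10 expressed elongation and termination factors, 3 were at least 1.5-fold higher in TH-treated NASH than in NASH and 0 lower, with a centred median of 0.38. These were Eef1b2 and Eef1d, exchange factors of the elongation machinery, and Eef2, the translocase, at 575, 494 and 785 FPKM. Eef1a1, which brings aminoacyl-tRNA to the ribosome, stood at 2650, 2423 and 3035 FPKM, a fold of 1.25. Of 36 initiation factors, 3 were higher, a share near that of all genes, and 0 lower (median 0.19). Eif1, which guards start codon choice and was among the higher ones, stood at 311, 281 and 474 FPKM. Of 21 other TOP mRNAs, 9 were higher and 1 lower (median 0.51). Tpt1, the translationally controlled tumour protein, stood at 934, 1031 and 1874 FPKM, and the importin Ipo7 was the lower one at 20.9, 22.7 and 12.1 FPKM. The TOP list shares genes with those before it: of its 9 higher genes, Eef1b2, Eef1d, Eef2, Fau and Gnb2l1 are already described, and Tpt1, Naca, Hnrnpa1 and Pfdn5 are the others.

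Of 5 noncoding hosts of small nucleolar RNAs, whose transcripts can carry a TOP start as well, 3 were higher and 0 lower (median 0.65). Gas5 stood at 21.2, 19.9 and 31.0 FPKM and Snhg1 at 3.51, 3.11 and 6.71 FPKM. Of 45 ribosome biogenesis genes, 1 was higher and 0 lower (median 0.13). That gene was Gar1, of the pseudouridylation particles, at 4.69, 5.21 and 8.67 FPKM, and Fbl, the rRNA methyltransferase fibrillarin, stood at 27.7, 23.99 and 35.5 FPKM. The assembly machinery as listed thus lay nearer to all genes than the ribosomal proteins did. Of 15 genes of mTORC1 and TOP control, 1 was higher and 1 lower (median -0.06). Larp1 stood at 22.4, 17.6 and 24.3 FPKM, lowest in NASH, as were 17.7% of all genes. The kinase Mtor stood at 5.85, 6.62 and 5.62 FPKM and Eif4ebp1 at 46.8, 55.3 and 51.7 FPKM. Eif4ebp2, a repressor of cap-dependent initiation, was the lower one at 38.3, 30.5 and 17.8 FPKM, and Myc, a driver of ribosome production, was the higher one at 2.58, 2.30 and 4.48 FPKM.

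Other large complexes of similar stable make-up had smaller medians in TH-treated NASH over NASH. The mitochondrial ribosomal proteins, which translate the mitochondrial genome's mRNAs, had a median of 0.19, with 5 of 75 at least 1.5-fold higher and 0 lower. Mrpl12 stood at 89.6, 96.5 and 151 FPKM. Proteasome subunits had a median of 0.12, with 3 of 38 higher and 1 lower, and nuclear-encoded complex I subunits a median of 0.39, with 5 of 36 higher and 0 lower. In NASH against control the medians were -0.01 for mitochondrial ribosomal proteins, -0.04 for proteasome subunits and -0.11 for complex I, beside -0.24 for the cytosolic ribosomal proteins.

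**Figure D5:**
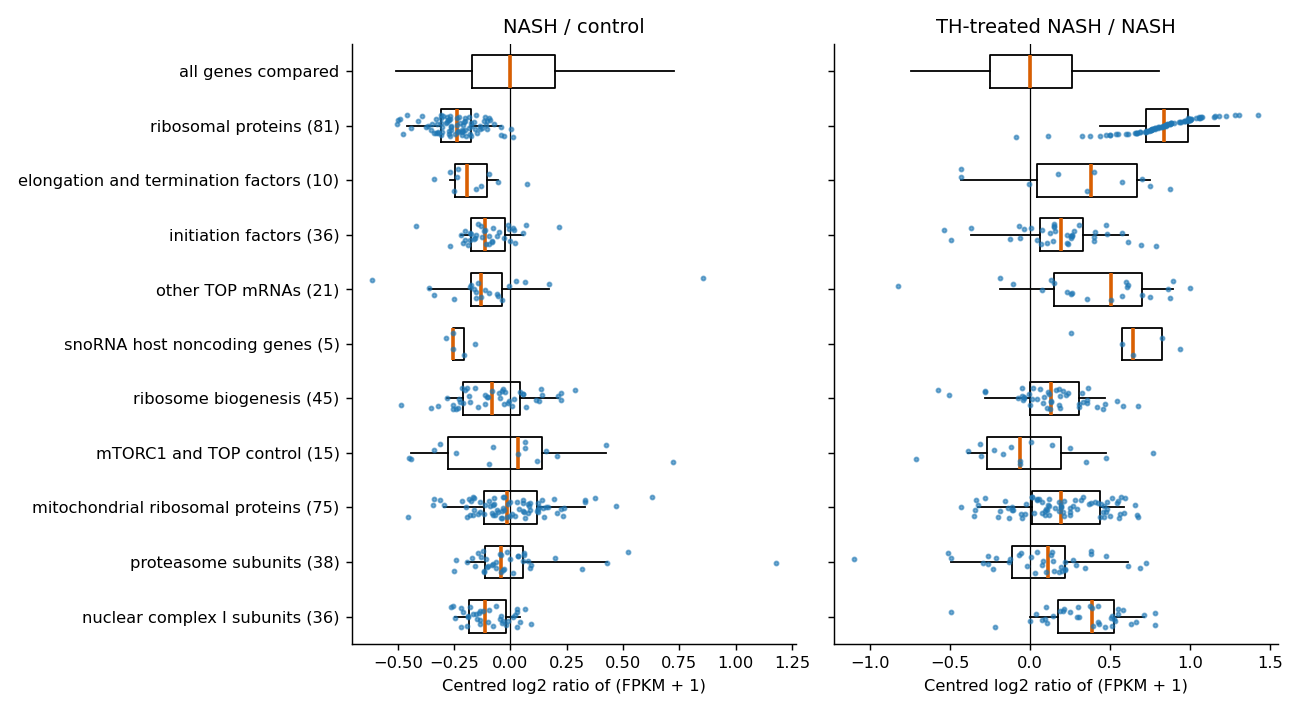
Centred log2 ratio of (FPKM + 1) for all genes compared, the ribosomal proteins and 9 related lists, NASH over control on the left and TH-treated NASH over NASH on the right. Boxes show quartiles and the median (orange), whiskers run from the 5th to the 95th percentile, and points are genes. On the right the ribosomal protein median is 0.84 and that of the snoRNA hosts 0.65; Fau and Gnb2l1 are plotted among the other TOP mRNAs and not as a list of their own.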

How the data were processed

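The authors deposited FPKM per gene in 1 table, with a column for each library and the length used for each gene. The labels' protocols describe oligo(dT) selection of mRNA, fragmentation and random-hexamer priming. The submitters' processing notes name TopHat2 and HTSeq. For both tools, version and settings were not given in the sources used, nor were the build and the strand mode. FPKM times gene length came in whole steps, 1 per fragment, for 100% of values above 0 within 0.01 fragment, and these fragments gave exact 95% conditional binomial (Clopper-Pearson) intervals of folds. With 1 library per group no count model was run. Log2 ratios used a pseudocount of 1 FPKM. Members' counts cover the 81 genes at 1 FPKM or more in any library, so 4 of 85 are left out of them.

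Members, lists and thresholds were chosen with earlier results of these data known. Named members were the 10 of highest mean FPKM, the 5 highest and 5 lowest ratios per comparison among those of at least 5 FPKM, all -like members with their partners, the stalk genes, Rpsa and Rps27a, and up to 3 genes per list and comparison plus Larp1, Mtor, Myc and Eif4ebp1. Rps15a, Rpl24, Gm28037, Rpl38, Naca, Hnrnpa1, Pfdn5 and Ly6g were named after their values were seen. One list gene is not reported here. Promoter windows are RefSeq's (GRCm38.p6). Gene models and 50-base matches are from GENCODE M21. Alternatives were other pseudocounts, filters, scalings, centrings and thresholds. The steps were tested on simulated Poisson counts. These held no spread between animals and no slope with gene length, so they cannot show how the counts of members behave in these libraries. Python 3.11.15, numpy 2.4.6, pandas 2.3.3 and scipy 1.17.1 were used.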

Additional observations from a re-analysis of the deposited data

How the results depend on the processing

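No direction of a members' median reversed under any alternative run. The other scalings were followed by centring on all genes, which removes a factor common to a library. They could therefore hardly move these medians and are no test of the scaling. For NASH against control the median was -0.12 without centring. It was -0.17 over the 17 members with at least 80% of their 50-base stretches in no other gene. At 1.2-fold 36 members were lower, against 16.1% of all genes. For TH-treated NASH against NASH the median was 0.80 with reference genes of at least 5 FPKM, 0.70 centred on genes of the same deposited length, 0.61 with members at their coding transcript length and 0.77 over the 17 members. The count of higher members was 16 at 2-fold, against 2.91% of all genes. It was 12 of those 17 at 1.5-fold, against 9.4%. For TH-treated NASH against control the median was 0.61 with a pseudocount of 5 FPKM, 0.64 with no filter on the reference genes, 0.69 without centring, 0.38 and 0.36 with the 2 length centrings, and 0.64 over the 17 members. The count was 22 and 14 with the length centrings, against 10.5% and 10.4% of all genes. It was 74 at 1.2-fold (27.6% of all genes), 1 at 2-fold (4.24%) and 9 of those 17 at 1.5-fold (11.6%). Coding transcript length was given to members alone, while other genes kept their deposited length. This setting and the 17 members were chosen after seeing the data, and counts over 17 members are lower by construction. Where no construction shows it, the cause was not tested. No paired analysis was possible because each group has 1 library, and no replicate could be left out. Depth did not limit the 81 members, each with at least 767 fragments per library.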

Other observations

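Rows named as processed copies of ribosomal protein genes (-ps) held few fragments beside the members. The table lists 241 of them, 34 at 1 FPKM or more in at least 1 library, and the control library held 3345 fragments on them, NASH 2470 and TH-treated NASH 3784. That is 0.319%, 0.298% and 0.320% of the members' fragments. The summed copies were 0.857-fold as high in NASH as in control (95% counting interval 0.814 to 0.903) and 1.88-fold as high in TH-treated NASH as in NASH (1.79 to 1.98). Whether these fragments come from the copies or from members' mRNA was not tested.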
